A study of Mus musculus with 45 samples.

Results

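Mouse bone-marrow-derived macrophages that had been in IL-4 for 4 h were compared with macrophages that had been in IL-4 for 2 h. The cells came from C57BL/6 bone marrow, were grown in L929-conditioned medium and were treated on day 7 of differentiation, and IL-4 was given at 10 ng/ml. There were 3 poly(A) RNA libraries at 4 h and 3 at 2 h, 6 of the 45 samples of the series, and libraries with the same replicate number were paired. The same table held 3 libraries each of cells given IFN-γ (100 ng/ml) for 4 h and 2 h, of cells given both cytokines for 4 h and 2 h, and of untreated cells. These other 15 libraries gave the levels before treatment and the change between the same times under other cytokines. All 21 libraries together gave the spread between replicates. The labels name no genetic change in these groups. The other 24 samples, from cells with short hairpin RNAs, were not analysed here. The comparison covered every gene with at least 1 CPM (the reads of a gene scaled to a common library size) in at least 3 of the 21 libraries, which were 11380 of the 24421 genes in the table.

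IL-4 is a cytokine of T helper type 2 cells, mast cells and basophils. It binds the IL-4 receptor α chain together with a partner chain, JAK kinases at the receptor phosphorylate STAT6, and STAT6 dimers enter the nucleus and bind DNA at paired TTC and GAA half-sites. In mouse macrophages this starts the programme called alternative activation, with a first layer of transcription factors and feedback inhibitors and a later layer of effectors such as arginase 1 and RELMα. The comparison of 4 h with 2 h asks which genes were still moving after the first layer had been made. A single untreated group served both times, so hours in culture and hours in IL-4 cannot be told apart.

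The 6 IL-4 libraries held 38347208 to 49492380 reads assigned to genes and 15247 to 15836 genes above 0. The precursor of ribosomal RNA, Rn45s, took 0.0662% to 0.475% of the reads in these 6 libraries, against 43.2% and 15.7% in untreated replicates 2 and 3, and values are therefore given in CPM after rescaling of each library by its median ratio. Of 18 genes of macrophage identity, 0 were higher and 2 lower at 4 h, and their summed level was 34013 to 49439.6 rescaled CPM at 4 h and 36391 to 57976 at 2 h. Among all genes tested 9.48% were called higher and 10.6% lower. The identity genes Csf1r, Lyz2, Adgre1, Cd68 and Itgam were present and not called. The 2 lower genes were Mertk, with a mean of 75.1 CPM at 4 h and 117.6 at 2 h, and Cd14, with 172 and 314. Markers of T and NK cells summed to 2.95 to 16.6 CPM at 4 h and 3.99 to 23.1 at 2 h, and the 1 gene of them that was tested, Cd4, was lower at 4 h. B cell markers summed to 53.0 to 61.6 CPM at 4 h and 83.7 to 86.7 at 2 h, with 1 of 2 tested genes, Blnk, lower and 1 listed gene at 0 in all 6 libraries. Neutrophil markers summed to 271 to 514 CPM at 4 h and 219.8 to 399 at 2 h, with 0 of 8 tested genes called, and markers of basophils, mast cells and eosinophils to 2.19 CPM or less at both times. The part of these differences in the results was not tested. Whether the numbered replicates were different mice or different dishes is not stated in the labels, and the spread behind each p-value may therefore be technical.

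The promoters of 3 of the genes with the largest rises are shown, 2 that hold the DNA letters STAT6 is known to prefer and 1, Fmnl2, that does not. They run from 250 bases before to 50 bases after the transcription start in RefSeq (GRCm38.p6), in the direction of the gene, and capitals mark TTC followed after 4 bases of any kind by GAA, the spacing that STAT6 favours. The motif is its own reverse complement, so both strands were searched at once.
Retnla, chr16:48842359-48842658, plus strand: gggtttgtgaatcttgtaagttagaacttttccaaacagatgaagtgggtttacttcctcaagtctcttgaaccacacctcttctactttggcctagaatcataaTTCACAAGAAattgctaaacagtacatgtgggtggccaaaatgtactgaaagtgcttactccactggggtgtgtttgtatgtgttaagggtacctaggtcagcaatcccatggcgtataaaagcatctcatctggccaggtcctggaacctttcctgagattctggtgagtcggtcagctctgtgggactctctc
Tmem26, chr10:68723496-68723795, plus strand: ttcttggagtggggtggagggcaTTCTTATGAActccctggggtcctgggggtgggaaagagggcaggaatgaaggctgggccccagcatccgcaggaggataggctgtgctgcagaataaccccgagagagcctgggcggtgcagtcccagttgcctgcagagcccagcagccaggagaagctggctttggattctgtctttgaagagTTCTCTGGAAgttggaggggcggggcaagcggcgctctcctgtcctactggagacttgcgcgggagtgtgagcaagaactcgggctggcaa
Fmnl2, chr2:52857618-52857917, plus strand: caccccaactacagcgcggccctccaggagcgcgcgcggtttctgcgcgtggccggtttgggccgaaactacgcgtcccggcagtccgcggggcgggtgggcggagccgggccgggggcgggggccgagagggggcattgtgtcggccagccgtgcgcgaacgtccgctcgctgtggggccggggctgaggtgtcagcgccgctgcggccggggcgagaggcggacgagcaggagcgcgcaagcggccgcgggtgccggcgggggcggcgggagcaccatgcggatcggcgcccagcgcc
Retnla, the gene with the largest rise, held 1 match, 145 bases upstream of the start. Tmem26 held 2, at 227 and 41 bases upstream. Fmnl2 held none, and neither did St8sia1 or Tanc2, the next genes in order of rise that have a sequence in the table. Of the 12 promoters read among the genes with the largest rises, 3 held this motif, those of Retnla, Tmem26 and Pdcd1lg2.

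Of the 11380 genes tested, 8783 had such a promoter sequence. This motif stood in 5.42% of all these promoters, in 8.22% of the promoters of genes higher at 4 h (70 of 852) and in 3.98% of those of genes lower at 4 h (36 of 904). Among genes higher by a log2 change of at least 1 it stood in 10.2% (5 of 49). The spacing of 3, TTCNNNGAA, which other STAT factors favour, stood in 8.45% of promoters of higher genes, 6.42% of those of lower genes and 7.08% of all. CACGTG, the E-box bound by MYC, stood in 12.7%, 8.08% and 10.5% of the same promoters. Among the genes higher by at least 1, TTCNNNGAA stood in 6.12% (3 of 49) and CACGTG in 8.16% (4 of 49), both below their shares of all promoters. Each motif was counted on its own, and a match describes letters in this window, not a bound site.

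Between 2 h and 4 h of IL-4 about as many genes rose as fell. At an adjusted p under 0.05 (limma, paired by replicate number, Benjamini-Hochberg over all genes), 1079 genes (9.48% of all tested) were higher at 4 h and 1203 (10.6%) were lower. Changes are differences in log2(rescaled CPM + 1), which understates the change of genes with low levels, and ± after a log2 change is its SE. Most changes were small: the median size of a called change was 0.41 on the log2 scale, and 90% of all genes lay between -0.47 and 0.38. By a log2 change of at least 1, 65 genes (0.571%) were higher and 73 (0.641%) lower, and 8 genes passed a change of 2. Of the 2282 called genes, 2275 moved in 1 direction in all 3 pairs of replicates. The paired fit favours such genes, so this count describes the calls and is no separate support for them. In bulk RNA, fewer cells with a transcript and less of it per cell cannot be told apart. The counts depended on the libraries: without replicate 3 in all groups 237 genes were higher and 296 lower, without replicate 1 these were 384 and 634, and without replicate 2 they were 1229 and 1300. Without the replicate number as a block 146 were higher and 171 lower, all of them among the genes called with it. In CPM as deposited, without rescaling, 224 were higher and 238 lower, and in the same values without the untreated libraries, a setting added after the data had been seen, 1328 and 957.

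**Figure D1:**
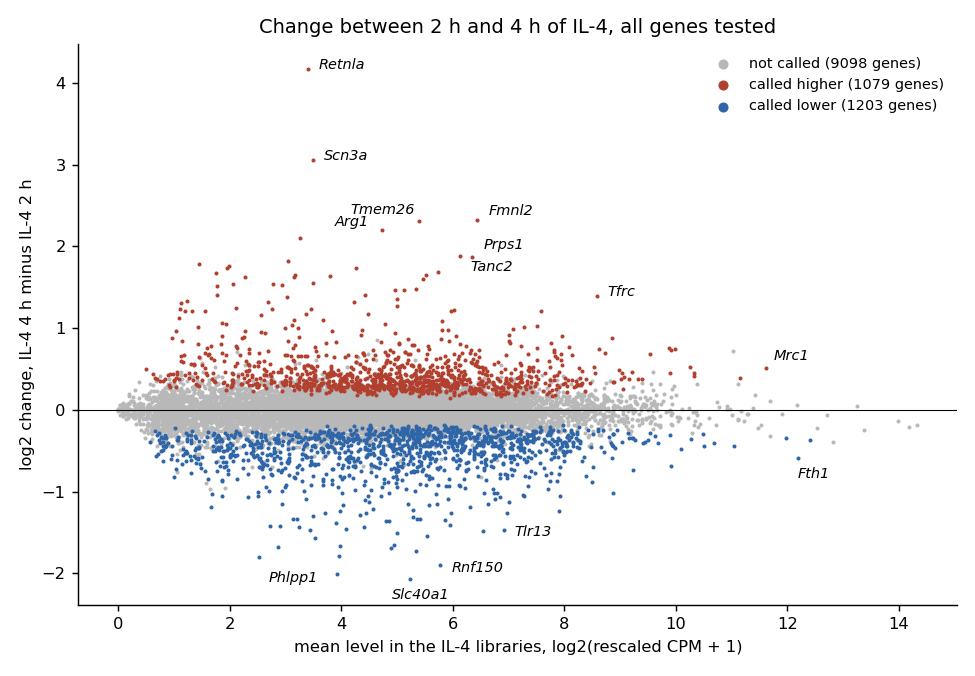
Log2 change of each of the 11380 genes tested, IL-4 4 h minus IL-4 2 h, against its mean level in the IL-4 libraries on the log2(rescaled CPM + 1) scale. Red points are the 1079 genes called higher at 4 h, blue points the 1203 called lower and grey points the rest; Retnla (4.17) stands furthest above 0 and Slc40a1 (-2.07) furthest below.

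Effector genes of alternative activation rose together in the second interval. Of 27 listed markers 23 were tested, and 18 were higher and 2 lower at 4 h, against 9.48% and 10.6% of all genes. Their median log2 change was 0.92, against -0.00 over all genes. The list was chosen with earlier results of these data known. Chil4 and Ear11 (Rnase2a) had means of 0.31 and 0.43 CPM at 2 h and 4.70 and 2.68 at 4 h. Such genes can pass the filter through their 4 h libraries. With at least 5 CPM in 3 libraries 21 were tested, and 16 were higher and 2 lower. Retnla, the gene of secreted RELMα, had 48.6, 41.8 and 41.0 rescaled CPM at 4 h in replicates 1, 2 and 3, against 1.59, 1.42 and 1.46 at 2 h, and 0 reads in every untreated library. Its mean was 29.4 times higher at 4 h (log2 change 4.17 ± 0.09, SE; adjusted p = 1.2e-14), and the 3 libraries of each time lay close together. Tmem26, a membrane protein of unknown role, had 90.7, 103 and 80.4 CPM at 4 h and 15.2, 25.1 and 14.2 at 2 h (log2 change 2.31 ± 0.13, adjusted p = 5.3e-09). Flt1, a receptor for vascular endothelial growth factor, had 37.0, 29.1 and 37.0 CPM at 4 h and 9.44, 10.9 and 8.32 at 2 h (1.74 ± 0.18). The 2 times did not overlap for any of these 3 genes, and untreated cells held less than 1 CPM of each.

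Arg1, the arginase that makes ornithine, had 25.8, 146 and 20.8 CPM at 4 h, against 6.90, 17.0 and 5.18 at 2 h. Replicate 2 was the highest at both times, and every pair rose (log2 change 2.20 ± 0.40, adjusted p = 0.00093). Slc7a2, the cationic amino acid carrier that brings in arginine, had 57.0, 95.7 and 97.1 CPM at 4 h and 30.7, 38.4 and 56.9 at 2 h, and the lowest 4 h library lay just above the highest 2 h library (0.98 ± 0.15). Pdcd1lg2, which encodes PD-L2, a ligand of the inhibitory receptor PD-1, rose to 96.6, 73.0 and 72.3 CPM, against 28.2, 19.3 and 27.8 at 2 h (1.65 ± 0.21, adjusted p = 4.7e-05). For PD-L2, as for Arg1, no 4 h library fell within the range of 2 h. The eosinophil chemokine Ccl24 had 102, 52.4 and 72.3 CPM at 4 h and 34.6, 14.4 and 25.5 at 2 h (1.60 ± 0.19). The monocyte chemokine Ccl8 had 25.2, 38.5 and 9.72 CPM at 4 h and 9.598, 7.21 and 3.25 CPM at 2 h (1.64 ± 0.25). Ccl7, a monocyte chemokine of the same family, stood at 124, 449 and 49.6 CPM at 4 h and 111, 346 and 68.6 at 2 h, with no call (0.03 ± 0.25, adjusted p = 0.96). Among the 17 tested chemokines 2 were higher and 2 lower, close to the shares of all genes, and the higher ones were Ccl24 and Ccl8. Without the replicate block the calls of Arg1 (0.064), Ccl24 (0.14), Ccl8 (0.11) and Slc7a2 (0.15) were lost, with the adjusted p in parentheses here and below.

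Smaller rises were seen in further markers. Mrc1, the mannose receptor, was the most abundant of the markers named here, with 4439.7, 3206 and 3652 CPM at 4 h and 2799, 2192 and 2895 at 2 h (0.52 ± 0.13, adjusted p = 0.0078). Chil3, which encodes a chitinase-like protein, had 105, 123 and 37.2 CPM at 4 h and 56.8, 72.7 and 29.1 at 2 h (0.65 ± 0.16). Its near copy Chil4 had 1.46, 10.4 and 2.19 CPM at 4 h and 0.113, 0.636 and 0.189 CPM at 2 h (1.79 ± 0.33). Reads of Chil3 and Chil4 can be shared, so each value is uncertain. Fibronectin (Fn1, 0.92 ± 0.21) and E-cadherin (Cdh1, 0.61 ± 0.15) rose too. Against the direction of the list, Ch25h, the cholesterol 25-hydroxylase, had 3.81, 18.7 and 3.09 CPM at 4 h, against 16.7, 44.9 and 14.2 at 2 h (-1.67 ± 0.29, adjusted p = 0.00066), and 1.062, 3.38 and 1.74 CPM in untreated cells. Within the list of markers, 11 were higher and 1 lower without replicate 3, 12 and 1 without replicate 1, and 6 and 0 without the replicate block. Without the block the calls of Mrc1 (0.14), Chil3 (0.8), Cdh1 (0.098), Fn1 (0.36) and Ch25h (0.16) were lost. Without replicate 1 those of Mrc1 (0.079), Chil3 (0.05) and Fn1 (0.092) were lost, without replicate 2 that of Chil3 (0.067), and without replicate 3 those of Mrc1 (0.094) and Cdh1 (0.12). In CPM as deposited the call of Mrc1 (0.17) was lost.

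**Figure D2:**
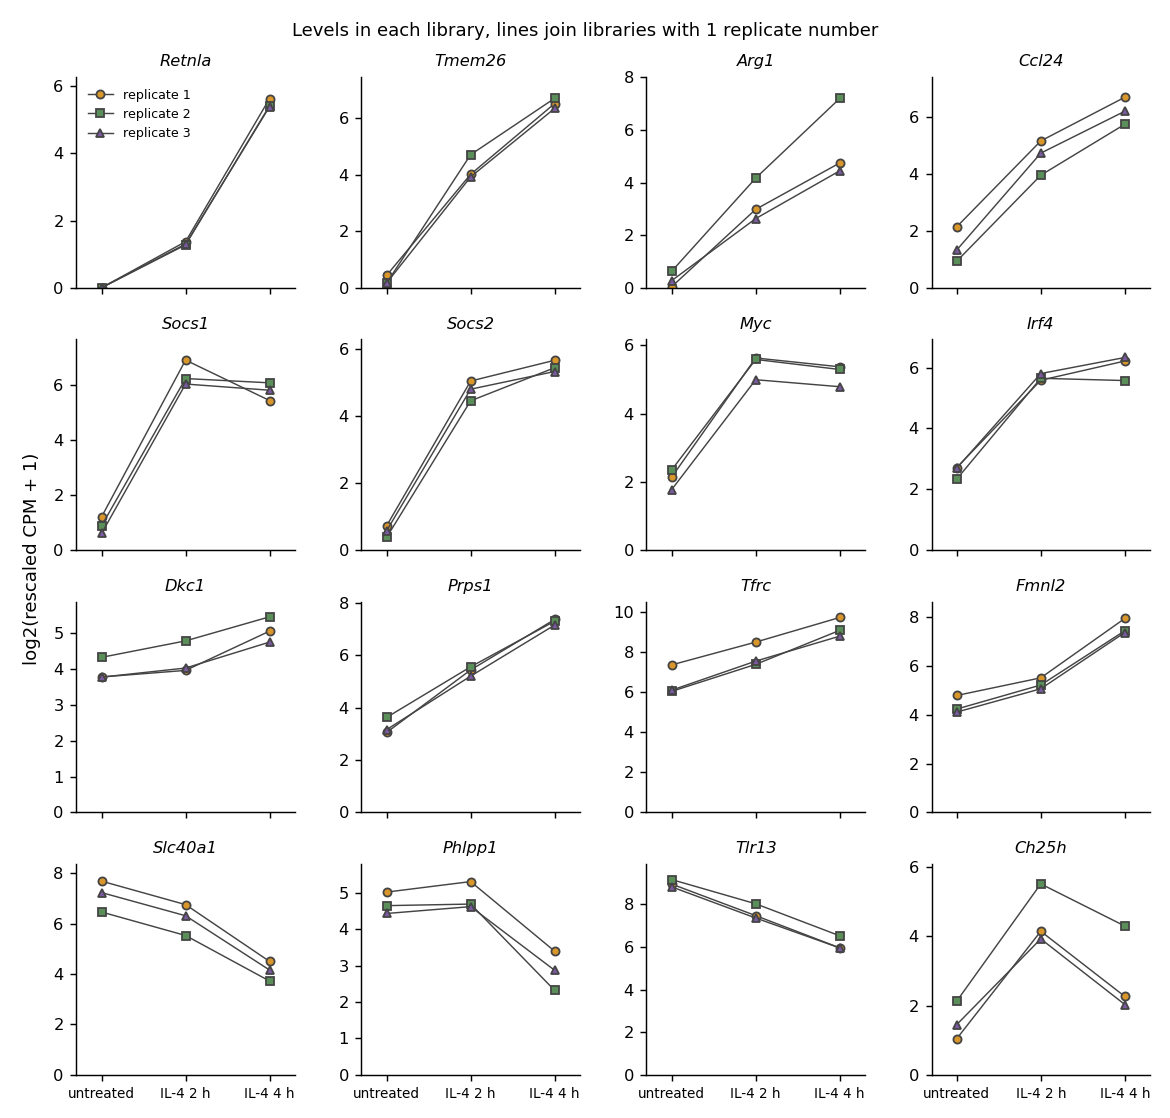
Level of 16 genes in each library of untreated cells and of cells in IL-4 for 2 h and 4 h, on the log2(rescaled CPM + 1) scale; each line joins the 3 libraries with 1 replicate number. Retnla, Tmem26, Arg1 and Ccl24 climbed at both steps, Socs1, Myc and Irf4 had climbed by 2 h, Prps1, Tfrc and Fmnl2 kept rising, Slc40a1 and Tlr13 kept falling, and Ch25h was highest at 2 h.

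Of 20 transcription factors of the IL-4 response 2 were higher at 4 h and 2 lower, close to the 9.48% higher and 10.6% lower among all genes, and the median log2 change was -0.20. A fit to the 6 IL-4 libraries alone called 3 higher and 8 lower, and without the replicate block 0 were called. Irf4, a factor needed for many alternative-activation genes, had 73.3, 46.6 and 79.5 CPM at 4 h and 46.9, 49.1 and 54.9 at 2 h (0.36 ± 0.17, adjusted p = 0.16). Myc, which drives growth genes, had 40.4, 38.2 and 26.7 CPM at 4 h and 48.6, 47.1 and 30.9 CPM at 2 h (-0.25 ± 0.13, adjusted p = 0.19). Egr2, Klf4 and Nfil3 were not called either: their log2 changes were -0.11 ± 0.46, 0.19 ± 0.22 and -0.11 ± 0.21. Untreated cells held 4.04 to 5.55 CPM of Irf4 and 2.42 to 4.10 of Myc, below every IL-4 library at either time. A factor that rose was Bhlhe40, a basic helix-loop-helix repressor, with 62.3, 24.1 and 41.6 CPM at 4 h and 32.3, 13.5 and 25.5 at 2 h (0.80 ± 0.15, adjusted p = 0.0011), and so did Batf3, a bZIP factor (0.59 ± 0.16, adjusted p = 0.014). Pparg, the nuclear receptor of lipid metabolism, fell to 46.1, 44.2 and 30.2 CPM at 4 h, against 73.8, 70.7 and 53.7 at 2 h (-0.71 ± 0.08, adjusted p = 6.0e-06), and untreated cells held 48.5, 42.0 and 31.1 CPM. Rel, an NF-κB subunit, fell as well (-0.52 ± 0.15, adjusted p = 0.019). The calls of Bhlhe40 (0.45), Batf3 (0.44), Pparg (0.069) and Rel (0.54) were lost without the replicate block, those of Batf3 (0.24) and Rel (0.19) without replicate 3, that of Batf3 (0.055) without replicate 2 and those of Batf3 (0.052) and Rel (0.18) in CPM as deposited.

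Of 13 feedback inhibitors of JAK signalling 1 was higher and 1 lower, and of 15 receptor chains, JAKs and STATs 1 was higher and 2 lower, close to the 9.48% and 10.6% of all genes. Socs2, the inhibitor that rose, had 50.1, 42.8 and 39.5 CPM at 4 h and 32.2, 21.1 and 27.1 at 2 h, with no overlap (0.71 ± 0.13, adjusted p = 0.0011). Socs1, which encodes a direct inhibitor of JAK kinases, had 42.4, 66.8 and 55.3 CPM at 4 h, against 119, 74.5 and 64.8 at 2 h (-0.62 ± 0.19, adjusted p = 0.03). Every pair of Socs1 fell, but replicate 1 fell furthest, and the ranges of the 2 times overlapped. Cish, which encodes a relative that binds cytokine receptors, was not called (0.20 ± 0.20, adjusted p = 0.54), nor was Socs3 (-0.45 ± 0.27). Among the receptor chains and kinases Jak2 (0.27 ± 0.09) rose, and Stat3 (-0.32 ± 0.11) and Il13ra1 (-0.66 ± 0.12), the partner chain that also binds IL-13, fell. Il4ra stood at 1094, 1245 and 980.0 CPM at 4 h and 902, 796 and 1002 at 2 h (0.30 ± 0.18, adjusted p = 0.27). Stat6 stood at 207, 162 and 190.2 CPM at 4 h and 197, 191 and 214 CPM at 2 h (-0.11 ± 0.07, adjusted p = 0.33). Calls lost without the replicate block were those of Socs2 (0.13), Socs1 (0.16), Jak2 (0.57), Stat3 (0.72) and Il13ra1 (0.07). Those lost without replicate 1 were Socs1 (0.46), Jak2 (0.13) and Stat3 (0.17), without replicate 3 Socs1 (0.11), Jak2 (0.27), Stat3 (0.32) and Il13ra1 (0.084), and in CPM as deposited Socs1 (0.11), Jak2 (0.53), Stat3 (0.6) and Il13ra1 (0.084).

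Many genes for making ribosomes, nucleotides and proteins rose, by small amounts. Of 40 genes of ribosome biogenesis, 31 were higher at 4 h and 0 lower, against 9.48% and 10.6% of all genes. Their median log2 change was 0.35. Srm, the spermidine synthase placed in this list as a MYC target, had 40.9, 42.8 and 31.0 CPM at 4 h and 18.3, 22.4 and 13.7 at 2 h (1.05 ± 0.13, adjusted p = 4.7e-05). Dkc1, the pseudouridine synthase of ribosomal RNA, had 32.4, 43.1 and 26.0 CPM at 4 h and 14.6, 26.7 and 15.4 CPM at 2 h (0.83 ± 0.15). The nucleolar genes Nolc1 (0.70 ± 0.12), Gnl3 (0.68 ± 0.12) and Rrp12 (0.67 ± 0.13) rose with them. The abundant nucleolar gene Npm1 was not called (0.16 ± 0.08, adjusted p = 0.18). The count of higher ribosome genes was 9 without replicate 3, 11 without replicate 1, 29 without replicate 2, 6 in CPM as deposited and 2 without the replicate block. Of the genes named, Dkc1 (0.13), Nolc1 (0.053), Gnl3 (0.081) and Rrp12 (0.38) lost their calls without the block, Dkc1 (0.055) without replicate 1 and Rrp12 (0.088) without replicate 3.

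Of 20 genes of nucleotide synthesis, 10 were higher and 1 lower, with a median of 0.28. Among all genes tested 9.48% were higher and 10.6% lower, for comparison with this list and the others of this paragraph. Prps1, which makes the phosphoribosyl pyrophosphate that feeds purine and pyrimidine synthesis, had 165, 158 and 142 CPM at 4 h, against 42.6, 46.4 and 36.1 at 2 h and 7.32, 11.4 and 7.97 in untreated cells (1.88 ± 0.18, adjusted p = 2.3e-06). It had the largest change of its list. The folate enzyme Mthfd1 rose by less (0.53 ± 0.09). Of 13 genes of arginine and polyamine metabolism 5 were higher and 0 lower, among them Arg1, Slc7a2 and Srm given above and Odc1, the ornithine decarboxylase that starts polyamine synthesis, with 43.2, 53.5 and 33.9 CPM at 4 h and 22.7, 38.6 and 19.6 at 2 h (0.71 ± 0.13). Of 20 aminoacyl-tRNA synthetases 9 were higher and 0 lower (median 0.22), for example the arginyl-tRNA synthetase Rars (0.39 ± 0.09). The number of higher genes of nucleotide synthesis was 1 without replicate 3, 4 without replicate 1, 1 without the replicate block and 2 in CPM as deposited. That of the synthetases was 0 without replicate 3, 1 without replicate 1, 1 without the block and 0 as deposited, and that of arginine and polyamine metabolism 3, 4, 1 and 4 in the same settings. The single calls of Mthfd1 (0.13), Odc1 (0.16) and Rars (0.57) were lost without the replicate block, of Mthfd1 (0.07), Odc1 (0.06) and Rars (0.12) without replicate 3 and of Mthfd1 (0.1) and Rars (0.22) in CPM as deposited.

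Chaperones of the endoplasmic reticulum, where secreted proteins fold, made up a further group. Of 18 genes of this list 9 were higher and 0 lower, with a median of 0.35. For this list and the others of this paragraph, the shares of all genes were 9.48% higher and 10.6% lower. Pdia4, a disulfide isomerase, had 624, 598 and 652 CPM at 4 h and 307, 344 and 369 at 2 h (0.88 ± 0.11, adjusted p = 3.5e-05), while Hyou1, a large chaperone, had 368, 270.0 and 379 CPM at 4 h and 163, 171 and 204 CPM at 2 h (0.91 ± 0.13). In both genes every 4 h library lay above every 2 h library. Dnajb9 (0.98 ± 0.13) and Herpud1 (0.87 ± 0.16), both targets of the unfolded protein response, rose as well. Herpud1 had a mean of 73.9 CPM at 4 h and 39.9 at 2 h, and of 71.6 in untreated cells. Among 17 cytosolic chaperones 7 were higher and 0 lower, for example Hsph1 (0.55 ± 0.11), and among 28 nuclear genes of oxidative phosphorylation 9 and 0, with cytochrome c (Cycs, 0.69 ± 0.12) the largest. The number of higher chaperones of the endoplasmic reticulum was 4 without replicate 3, 5 without replicate 1, 3 without the replicate block and 5 in CPM as deposited. In the same settings 0, 2, 0 and 0 cytosolic chaperones and 0, 1, 0 and 1 respiratory genes were higher. Calls lost were Dnajb9 (0.35), Herpud1 (0.26), Hsph1 (0.064) and Cycs (0.36) without the replicate block, Hsph1 (0.068) and Cycs (0.062) without replicate 3 and Hsph1 (0.087) in CPM as deposited.

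**Figure D3:**
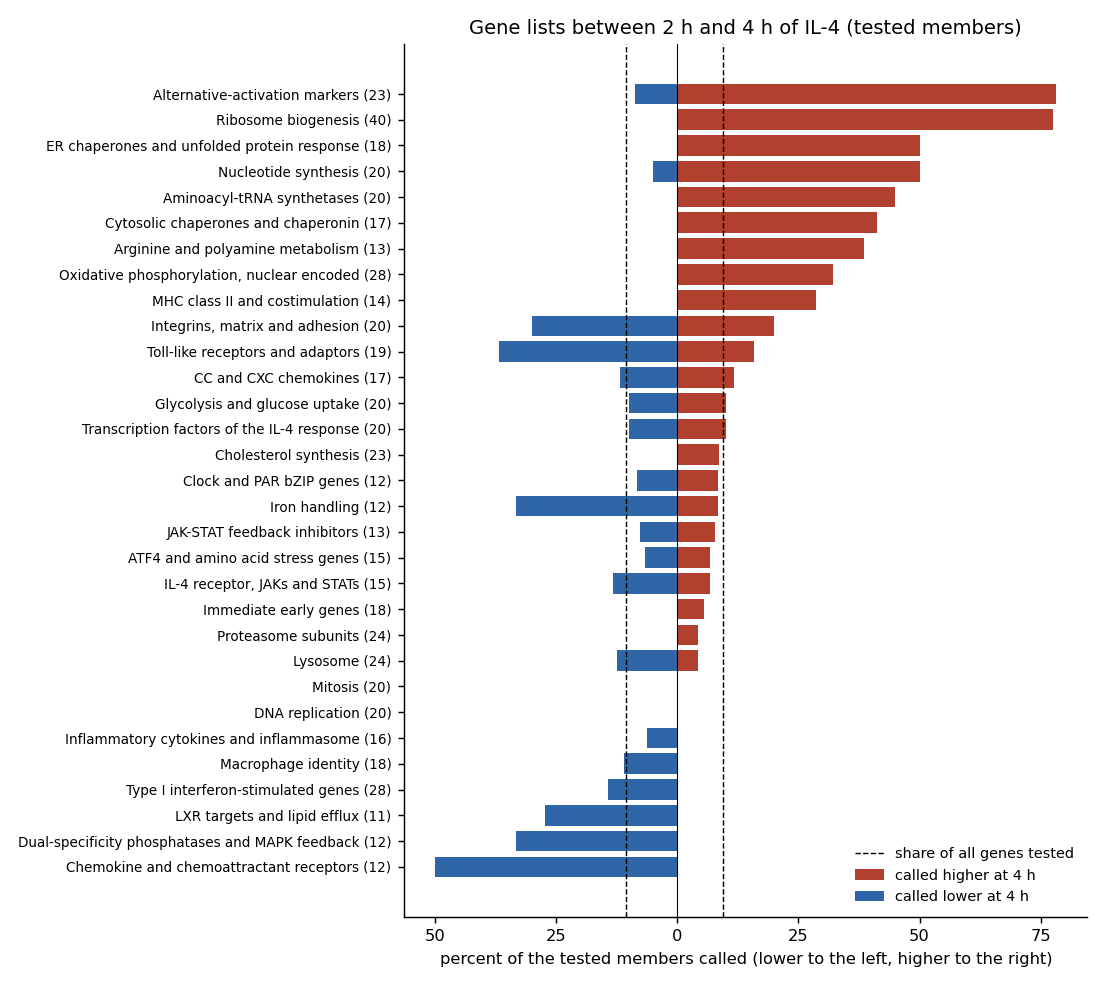
Percent of the tested members of each gene list called higher (red, to the right) or lower (blue, to the left) at 4 h against 2 h of IL-4, with the number of tested members in parentheses; lists with at least 10 tested members are shown. Dashed lines mark the 9.48% and 10.6% of all genes tested that were called higher and lower. Alternative-activation markers and ribosome biogenesis reach furthest to the right, chemoattractant receptors furthest to the left.

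Other large rises were in genes of varied function. Scn3a, an α subunit of voltage-gated sodium channels (chr2:65457118-65567627, GRCm38, GENCODE vM21), had 36.2, 23.7 and 34.8 CPM at 4 h, against 2.68, 2.38 and 3.63 at 2 h (3.05 ± 0.12, adjusted p = 4.3e-11), and 0.137 CPM or less in untreated libraries. Fmnl2, a formin that elongates actin filaments (chr2:52857860-53133804), had 245, 173 and 164 CPM at 4 h and 44.6, 36.2 and 32.4 CPM at 2 h (2.32 ± 0.12, adjusted p = 1.7e-09). Tanc2, a scaffold protein (chr11:105589986-105929304), had 183, 101 and 114 CPM at 4 h and 44.5, 22.3 and 40.1 CPM at 2 h (1.88 ± 0.13). For each of these 3 genes, chosen by size of change, the lowest 4 h library exceeded the highest 2 h library. The untreated libraries held 40.4, 21.8 and 37.1 CPM of Tanc2, with a log2 change of 0.09 ± 0.13 from untreated to 2 h (adjusted p = 0.66). Arl15, a small GTPase related to ADP-ribosylation factors, had 58.7, 43.9 and 49.8 CPM at 4 h, 16.8, 18.7 and 17.5 at 2 h and 15.5, 18.9 and 14.4 in untreated cells (1.46 ± 0.10 for 4 h against 2 h).

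St8sia1, the sialyltransferase that makes ganglioside GD3, had 13.6, 15.7 and 27.4 CPM at 4 h and 2.04, 4.43 and 4.36 at 2 h (2.099 ± 0.21, adjusted p = 3.4e-06). Mcf2l, a guanine nucleotide exchange factor, had 12.1, 20.6 and 11.8 CPM at 4 h and 4.08, 3.10 and 2.90 CPM at 2 h (1.82 ± 0.20). Pecam1, an adhesion molecule of endothelium and leukocytes, had 17.4, 11.1 and 16.6 CPM at 4 h and 4.45, 2.91 and 4.996 CPM at 2 h (1.65 ± 0.20). Ankrd6, a modulator of Wnt signalling, and Aifm3, a mitochondrial oxidoreductase, were expressed at lower levels and changed by 1.68 ± 0.09 and 1.74 ± 0.20. The serine protease inhibitor Serpina3g (1.69 ± 0.19) also rose, but its reads can be shared with near-identical neighbours and its value is uncertain. Of the genes in this paragraph and the one before it, every call held without each replicate number, without the replicate block and in CPM as deposited.

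The main importer of transferrin-bound iron rose and the exporter of iron fell. Tfrc, the transferrin receptor that brings iron in (chr16:32608920-32632794), had 848, 543 and 444 CPM at 4 h, against 361, 167 and 187 at 2 h and 164, 64.9 and 67.7 in untreated cells (4 h against 2 h 1.39 ± 0.12, adjusted p = 7.7e-07). Slc40a1, which encodes ferroportin, the iron exporter (chr1:45908068-45926523), had 21.7, 12.2 and 16.9 CPM at 4 h and 107, 45.3 and 78.7 at 2 h (-2.07 ± 0.27, adjusted p = 5.4e-05), the largest fall of all genes called. Its 4 h libraries all lay below its 2 h libraries, and untreated libraries held 206, 87.4 and 149.9 CPM. Fth1, the ferritin heavy chain that stores iron, had 4380.3, 3239 and 3709.5 CPM at 4 h and 6971, 4946 and 5186 at 2 h (-0.59 ± 0.13). The haem-degrading enzyme Hmox1 had 123, 81.5 and 73.3 CPM at 4 h and 205, 151 and 123 CPM at 2 h (-0.79 ± 0.15). Of 12 iron genes 1 was higher, close to the 9.48% of all genes, and 4 were lower, against 10.6%. These counts were 1 and 1 without replicate 3, 0 and 1 without the replicate block and 1 and 2 in CPM as deposited. Without the block the calls of Tfrc (0.13), Fth1 (0.26) and Hmox1 (0.25) were lost, without replicate 3 those of Fth1 (0.11) and Hmox1 (0.065), and in CPM as deposited that of Fth1 (0.34).

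Among lipid genes, 3 of 11 targets and partners of the oxysterol receptor LXR were lower and 0 higher, and the number lower was 1 in CPM as deposited, 0 without the replicate block and 5 in a fit to the 6 IL-4 libraries alone. Abca1, the cholesterol exporter, had 103, 40.6 and 58.8 CPM at 4 h and 138, 102 and 94.9 at 2 h (-0.80 ± 0.19, adjusted p = 0.006), and Nr1h3, which encodes the receptor LXRα, changed by -0.56 ± 0.11. The untreated level of Abca1 was 437, 250.3 and 317 CPM, above every IL-4 library. Of 23 genes of cholesterol synthesis 2 were higher, close to the 9.48% of all genes, and 0 lower, below the 10.6%. Without replicate 2, 6 were higher. Calls of Abca1 (0.34) and Nr1h3 (0.5) were lost without the replicate block and that of Nr1h3 (0.1) in CPM as deposited.

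After Slc40a1, the largest falls among called genes were those of Phlpp1 and Rnf150. Phlpp1, a phosphatase that switches off the kinase AKT (chr1:106171752-106394250), had 9.56, 4.00 and 6.34 CPM at 4 h, against 38.9, 24.96 and 23.7 at 2 h (-2.02 ± 0.14, adjusted p = 5.5e-08), and 31.6, 24.2 and 20.7 in untreated cells. The 2 h and untreated libraries overlapped (log2 change 0.17 ± 0.14, adjusted p = 0.4). Rnf150, a membrane protein with a RING domain, had 31.2, 16.7 and 35.3 CPM at 4 h and 106, 76.9 and 128 at 2 h (-1.90 ± 0.08, adjusted p = 2.1e-10). Arhgap24, which switches off the GTPase RAC, had 5.63, 8.67 and 7.63 CPM at 4 h and 22.1, 33.1 and 28.3 CPM at 2 h (-1.80 ± 0.08). Arhgap18, another GTPase-activating protein, had 54.3, 60.0 and 50.3 CPM at 4 h and 166, 160.2 and 140.3 CPM at 2 h (-1.49 ± 0.08). Ssh2, a phosphatase that activates the actin-severing protein cofilin, fell too (-1.65 ± 0.13). For all 5 genes each 4 h library lay below each 2 h library, which their choice by size of change favours.

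Further large falls were those of Zdhhc14, a palmitoyltransferase (-1.72 ± 0.20), Dapk1, a death-associated kinase (-1.51 ± 0.10), and Gpr162, an orphan receptor (-1.69 ± 0.25). Serpinb8, a serine protease inhibitor, had 6.29, 6.71 and 4.11 CPM at 4 h and 20.0, 19.5 and 16.5 CPM at 2 h (-1.57 ± 0.12, adjusted p = 1.3e-07). Of the genes named in this paragraph and the one before it, Dapk1 (0.094) and Gpr162 (0.19) lost their calls without the replicate block, and none did without any 1 replicate number or in CPM as deposited.

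Several receptors by which macrophages follow chemoattractants fell. Of 12 tested receptors 6 were lower and 0 higher, against 10.6% lower and 9.48% higher among all genes, with a median of -0.43. Ccr2, the receptor by which monocytes leave the marrow, had 21.02, 68.7 and 25.03 CPM at 4 h and 62.5, 145 and 79.5 CPM at 2 h (-1.41 ± 0.18, adjusted p = 5.0e-05). Every pair fell, replicate 2 was the highest at each time, and the 2 times overlapped. The fractalkine receptor Cx3cr1 (-1.16 ± 0.31) and the complement receptor C5ar1 (74.7, 70.9 and 67.9 CPM at 4 h and 129, 139.8 and 122 at 2 h, -0.86 ± 0.17) fell. Cxcr4 (0.29 ± 0.20, adjusted p = 0.33) and the abundant C3ar1 (-0.11 ± 0.07, adjusted p = 0.31) were not called. The number of lower receptors was 3 without replicate 3, 5 without replicate 1 and 2 without the replicate block. Calls lost were Ccr2 (0.14) and Cx3cr1 (0.23) without the block, Cx3cr1 (0.16) without replicate 1 and Cx3cr1 (0.051) and C5ar1 (0.066) without replicate 3.

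Among sensors of microbes more genes were called lower than higher. Over all genes tested 9.48% were higher and 10.6% lower, and these shares apply to each count in this paragraph. Of 19 Toll-like receptors and adaptors 3 were higher and 7 lower, with a median of -0.14, and the counts were 0 and 2 without replicate 3, without replicate 1, without the replicate block and in CPM as deposited, and 2 and 3 with no filter on low values. Tlr13, a receptor for bacterial ribosomal RNA, had 61.2, 91.1 and 61.1 CPM at 4 h and 177, 259.9 and 163 at 2 h (-1.47 ± 0.14, adjusted p = 1.4e-06). Cd14, the coreceptor for lipopolysaccharide, had 142, 191 and 183 CPM at 4 h and 316, 279 and 348 CPM at 2 h (-0.87 ± 0.14). Both fell in every pair with no overlap, and neither call was lost without any 1 replicate number. Clec4e, a receptor for mycobacterial glycolipid, was the 1 gene lower among 16 inflammatory genes (-1.37 ± 0.30, adjusted p = 0.0043). Of 14 genes of MHC class II and costimulation 4 were higher and 0 lower, with Pdcd1lg2 (above), Cd40 (0.91 ± 0.19) and Cd86 (0.64 ± 0.12) among them, while Cd274, which encodes PD-L1, was not called (-0.22 ± 0.22). The calls of Clec4e (0.25), Cd40 (0.27) and Cd86 (0.57) were lost without the replicate block, that of Clec4e (0.073) without replicate 1 and those of Clec4e (0.071), Cd40 (0.066) and Cd86 (0.056) without replicate 3.

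Adhesion genes were divided, with 4 of 20 higher and 6 lower, against 9.48% higher and 10.6% lower among all genes. Itga6, the laminin receptor chain, had 113, 184 and 150.0 CPM at 4 h and 224, 336 and 311 at 2 h (-0.96 ± 0.11, adjusted p = 1.7e-05). Itga4, the α4 chain, had 105, 91.3 and 103 CPM at 4 h and 192, 140.4 and 194 CPM at 2 h (-0.79 ± 0.13). Thrombospondin (Thbs1, -0.75 ± 0.16) fell, and the vitronectin receptor chain Itgb3 rose (117, 63.1 and 113 CPM at 4 h and 45.5, 43.8 and 79.9 at 2 h, 0.79 ± 0.18). Of 12 feedback genes of MAP kinase signalling, 4 were lower and 0 higher, against the same shares of all genes. These included Spred1 (-0.70 ± 0.19) and Spred2 (-0.78 ± 0.15), both inhibitors of RAS signalling. Without replicate 3 the adhesion list had 3 higher and 2 lower genes and the MAP kinase list 1 lower, without replicate 1 the adhesion list had 2 and 4, and without the replicate block both lists had 0 called. Calls lost were Itga6 (0.051), Itga4 (0.26), Thbs1 (0.34), Itgb3 (0.38), Spred1 (0.29) and Spred2 (0.22) without the replicate block, Itgb3 (0.13) without replicate 1 and Itga4 (0.061) and Spred1 (0.25) without replicate 3.

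Of 28 genes stimulated by type I interferon 4 were lower and 0 higher, against 10.6% lower and 9.48% higher among all genes, and the median was -0.22. Rsad2, the antiviral protein viperin, had 15.6, 47.6 and 9.50 CPM at 4 h and 58.1, 80.6 and 18.5 at 2 h (-1.16 ± 0.25, adjusted p = 0.0035). Ifit1 had 19.5, 70.0 and 11.4 CPM at 4 h and 65.6, 97.0 and 17.6 CPM at 2 h (-0.92 ± 0.24). Ifit3 had 12.6, 36.9 and 6.20 CPM at 4 h and 35.4, 65.3 and 8.91 CPM at 2 h (-0.89 ± 0.24), and reads of these relatives can be shared. Replicate 2 was the highest at both times, and the 2 times overlapped in all 3 genes. The number of lower genes was 0 without replicate 1, 2 without replicate 3, 7 without replicate 2, 11 in a fit to the 6 IL-4 libraries alone and 0 without the replicate block. Among the genes named, the calls of Rsad2 (0.6), Ifit1 (0.75) and Ifit3 (0.78) were lost without the block, of Rsad2 (0.058), Ifit1 (0.24) and Ifit3 (0.13) without replicate 1 and of Rsad2 (0.062) and Ifit1 (0.066) without replicate 3.

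The 20 genes of DNA replication and the 20 of mitosis had 0 called in limma and 0 in edgeR, and 0 of either list had an unadjusted p under 0.05 in limma. Without the untreated libraries 1 gene of DNA replication was lower. Pcna, the sliding clamp of DNA synthesis, had a log2 change of -0.21 ± 0.18 (adjusted p = 0.46). The summed level of the mitosis genes ran from 190.1 to 1591 CPM at 4 h and from 165 to 1972 at 2 h, so libraries of the same time differed widely. Of 24 proteasome subunits 1 was higher and 0 lower, and of 18 immediate early genes 1 and 0, against 9.48% and 10.6% of all genes. In a fit to the 6 IL-4 libraries alone 5 proteasome subunits were higher. Of 20 glycolysis genes 2 were higher and 2 lower, and of 24 lysosomal genes 1 and 3, and the glycolysis counts and the lower lysosomal count were close to the shares of all genes. The largest fall among the lysosomal genes was that of Sqstm1, the autophagy receptor p62 (-0.63 ± 0.12). Its call was lost without replicate 3 (adjusted p = 0.06), without the replicate block (0.062) and in CPM as deposited (0.087).

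Many of the genes that changed strongly were long, those that fell more than those that rose. The median span of a gene in the annotation was 23.6 kb over all tested genes with a span, 143 kb over the 71 genes lower by a log2 change of at least 1, and 45.7 kb over the 64 genes higher by that much. Of the strongly lower genes 60.6% spanned more than 100 kb, as did 39.1% of the strongly higher genes, against 12.1% of all genes. Examples are Arhgap24 at 417 kb, Rnf150 at 228 kb and Phlpp1 at 222 kb, while Slc40a1 spanned 18.5 kb. Over all lower genes the median was 50.8 kb, and over all higher genes 22.3 kb. Under IFN-γ the genes lower at 4 h than at 2 h by at least 1 had a median span of 52.5 kb, with 31.5% over 100 kb, and under both cytokines 61.8 kb, with 37.1% over 100 kb. Of the genes higher by at least 1, 14.8% spanned more than 100 kb under IFN-γ and 15.1% under both. Span was looked at after the values of these genes had been seen, and these medians are a description without a test.

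**Figure D4:**
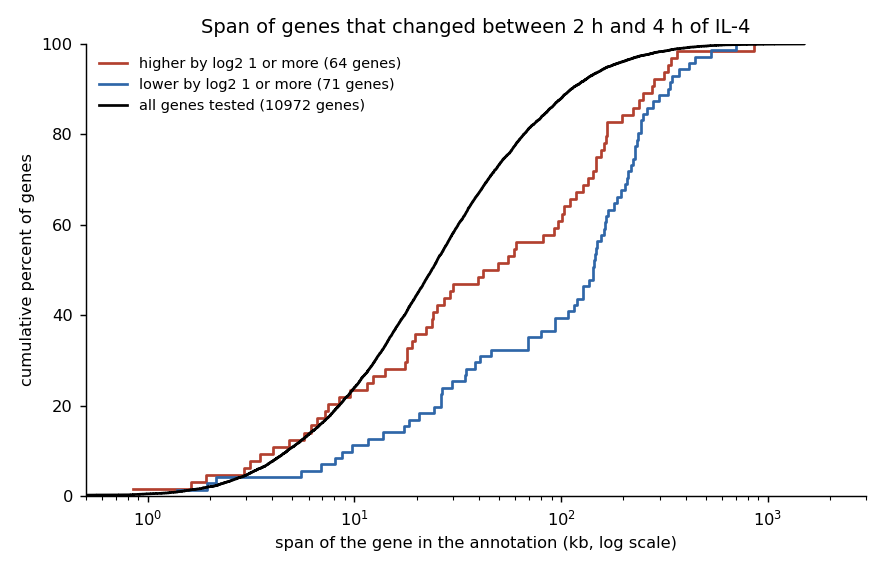
Cumulative percent of genes by the length they span in the annotation (kb, log scale), for genes called higher by a log2 change of at least 1 at 4 h against 2 h of IL-4 (red), genes called lower by that much (blue) and all genes tested (black). The curve of lower genes lies to the right, with a median of 143 kb against 23.6 kb over all genes.

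The interval from 2 h to 4 h under the other cytokines was measured in other libraries than those of IL-4. Under IFN-γ, 2617 genes (23.0%) were higher and 2553 (22.4%) lower at 4 h against 2 h. Of the genes that rose under IL-4, 28.6% rose under IFN-γ (309 genes, 11.8% of that list) and 16.3% fell. Of the genes that fell under IL-4, 44.6% fell under IFN-γ (21.03% of that list) and 21.7% rose. Under both cytokines, 2640 genes (23.2%) were higher and 2715 (23.9%) lower. Of the IL-4 risers 56.1% rose under both cytokines (22.9% of that list) and 3.80% fell, and of the IL-4 fallers 64.8% fell (28.7% of that list) and 8.31% rose. Across the 11380 genes the log2 changes under IL-4 correlated at r = 0.17 with those under IFN-γ and at r = 0.50 with those under both cytokines, given as a description, since genes are not independent. In CPM as deposited 812 genes were higher and 1755 lower under IFN-γ and 850 and 1569 under both cytokines, and without the untreated libraries these were 1470 and 4395, and 1741 and 3648. Without replicate 3 they were 1379 and 1262 under IFN-γ and 1451 and 1543 under both, and without replicate 1 the genes lower under IFN-γ were 1644.

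**Figure D5:**
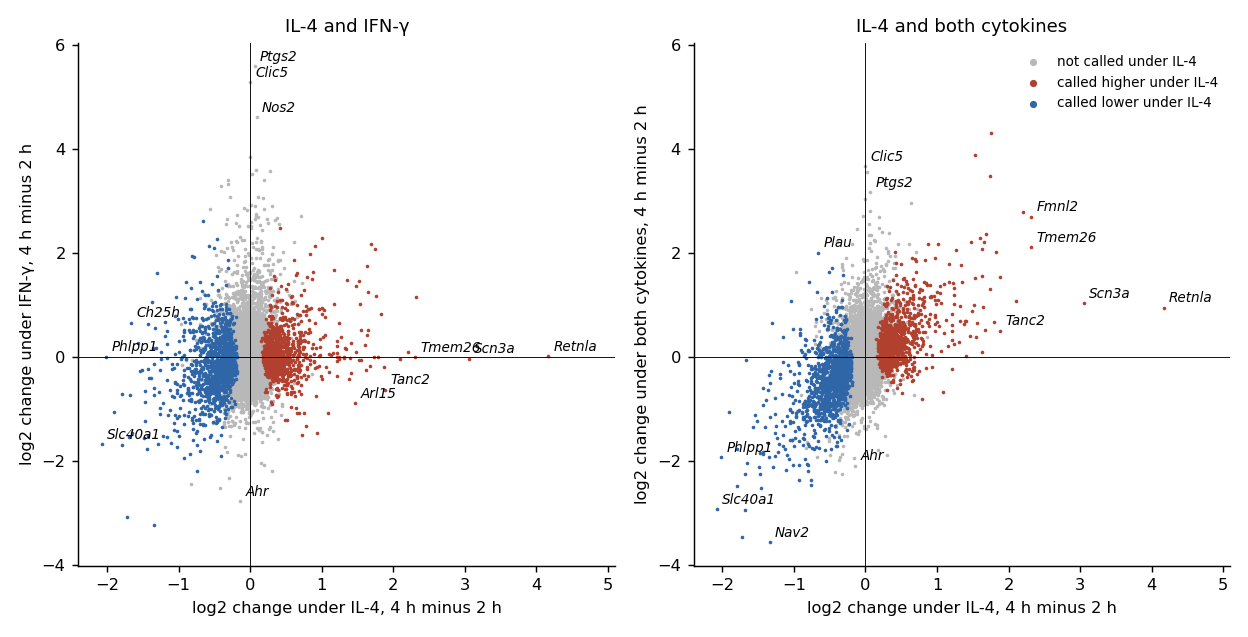
Log2 change between 2 h and 4 h under IL-4 (horizontal) against the change under IFN-γ (left panel, vertical) or under both cytokines (right panel, vertical) for all 11380 genes tested, coloured by the call under IL-4. Retnla, Scn3a and Tmem26 lie far to the right and near 0 on the IFN-γ axis; Ptgs2, Clic5 and Nos2 lie near 0 on the IL-4 axis and high on the IFN-γ axis.

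Counts in several gene lists are set side by side for the 3 treatments, with the shares over all genes for each treatment given above. By the interaction test, 15.5% of all genes had a higher change under IL-4 than under IFN-γ and 17.3% a lower one. Against both cytokines these shares were 10.6% and 11.5%. Of 23 alternative-activation markers, 18 were higher and 2 lower under IL-4, 16 and 0 under both cytokines, and 7 and 1 under IFN-γ. Their median log2 change was 0.92 under IL-4, 0.95 under both and 0.17 under IFN-γ. By the interaction test 1 marker had a higher change under IL-4 than under both and 4 a lower one. Against IFN-γ these were 10 and 3. Of the 40 genes of ribosome biogenesis, 31 were higher and 0 lower under IL-4, 27 and 0 under both cytokines, and 9 and 6 under IFN-γ. The difference between IL-4 and IFN-γ was called in 22 of them, each with the higher change under IL-4. Of the 20 genes of nucleotide synthesis, 10 were higher and 1 lower under IL-4, 2 and 4 under both, and 2 and 8 under IFN-γ, and 14 had a higher change under IL-4 than under IFN-γ by the interaction test and 0 a lower one. Of 16 inflammatory genes 0 were higher and 1 lower under IL-4, 10 and 1 under both, and 15 and 0 under IFN-γ, and 14 had a lower change under IL-4 than under IFN-γ and 0 a higher one. Glycolysis, with 2 of 20 genes higher and 2 lower under IL-4, had 13 higher and 1 lower under both and likewise under IFN-γ, and 11 had a lower change under IL-4 than under IFN-γ. Of 12 receptors for chemoattractants 0 were higher and 6 lower under IL-4, 2 and 7 under both, and 3 and 6 under IFN-γ. Of 18 chaperones of the endoplasmic reticulum 9 were higher and 0 lower under IL-4, 14 and 0 under both, and 13 and 0 under IFN-γ. In that list 2 genes had a higher change under IL-4 than under IFN-γ and 2 a lower one. The scale matters for such differences: in CPM as deposited the median over all genes was 0.22 for the difference between IL-4 and IFN-γ and 0.16 for that between IL-4 and both.

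The change over time differed between IL-4 and IFN-γ, by the interaction test, in 1760 genes with a higher change under IL-4 (15.5%) and 1971 with a lower one (17.3%). In CPM as deposited these were 694 and 506, and without the untreated libraries 3641 and 1162. Without replicate 3 they were 583 and 807, and without replicate 1 they were 761 and 1203. Retnla rose under IL-4, and with IFN-γ its libraries held 0.0270 CPM or less at both times (difference of the 2 changes 4.14 ± 0.13, adjusted p = 1.9e-12). Scn3a (3.08 ± 0.17) and Tmem26 (2.31 ± 0.19) differed likewise, with less than 0.3 CPM in every IFN-γ library. Prps1 held 6.92, 11.5 and 6.32 CPM at 4 h and 7.18, 14.9 and 7.28 at 2 h of IFN-γ, a change of -0.19 ± 0.18 that was not called, and the difference was 2.07 ± 0.25 (adjusted p = 1.6e-05). Tanc2 and Arl15 rose under IL-4 and fell under IFN-γ (-0.63 ± 0.13 and -0.89 ± 0.10), with differences of 2.51 ± 0.18 and 2.35 ± 0.15. Socs2 also fell under IFN-γ, at a low level, with 0.769, 0.684 and 0.432 CPM at 4 h and 2.24, 1.38 and 1.39 at 2 h of IFN-γ (difference 1.42 ± 0.19, adjusted p = 3.5e-05). Phlpp1 and Serpinb8 fell under IL-4 and were not called under IFN-γ (0.01 ± 0.14 and 0.27 ± 0.12), with differences of -2.02 ± 0.20 and -1.84 ± 0.16. Ch25h, which fell under IL-4, held 135, 168 and 194 CPM at 4 h and 62.9, 166 and 103 at 2 h of IFN-γ (difference -2.33 ± 0.41, adjusted p = 0.0004). The calls of Socs2 (0.13) and Ch25h (0.16) for IL-4 itself were lost without the replicate block, and so was that of the difference for Ch25h (adjusted p = 0.096).

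Other large differences came from genes that rose under IFN-γ and were not called under IL-4. Ptgs2, the inducible cyclooxygenase, held 1.95, 0.155 and 1.02 CPM at 4 h and 1.43, 0.276 and 0.943 at 2 h of IL-4, and 660.3, 61.3 and 255 CPM at 4 h and 9.10, 1.43 and 2.78 at 2 h of IFN-γ (difference -5.53 ± 0.56, adjusted p = 2.5e-06). Clic5, an intracellular chloride channel protein (-5.30 ± 0.16), and Nos2, the inducible nitric oxide synthase (-4.53 ± 0.30), showed the same contrast, each with less than 1 CPM in all IL-4 libraries. So did the chemokine Ccl5 (-3.72 ± 0.45), the NF-κB inhibitor Nfkbie (-3.64 ± 0.26), the transporter Slco3a1 (-3.69 ± 0.25) and Mir155hg, the host transcript of miR-155 (-3.51 ± 0.52; adjusted p = 0.07 by edgeR). In the other direction, Ahr, the aryl hydrocarbon receptor, held 105, 56.8 and 66.1 CPM at 4 h and 118, 50.9 and 88.3 at 2 h of IL-4, but 5.47, 2.78 and 4.65 at 4 h and 42.9, 26.8 and 34.9 at 2 h of IFN-γ (difference 2.63 ± 0.19, adjusted p = 7.6e-08). Lpin1, a phosphatidate phosphatase (2.39 ± 0.24), and Slco2b1, an organic anion carrier (2.48 ± 0.44), also fell under IFN-γ. Lpin1 had risen under IL-4 (0.94 ± 0.17), a call lost without the replicate block: Lpin1 (0.42).

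The change from 2 h to 4 h differed between IL-4 alone and both cytokines in 1210 genes with a higher change under IL-4 alone (10.6%) and 1304 with a lower one (11.5%). In CPM as deposited these were 244 and 282, and also without the untreated libraries 2379 and 835. Without replicate 3 they were 195 and 368, and without replicate 1 they were 326 and 631. Retnla averaged 1.059 ± 0.388 CPM at 4 h and 0.0545 ± 0.0764 CPM at 2 h of both cytokines (SD, n = 3 each), and the difference between the treatments was 3.22 ± 0.13 (adjusted p = 2.4e-10). Scn3a held 2.72, 2.45 and 3.10 CPM at 4 h and 0.709, 0.784 and 1.00 CPM at 2 h of both cytokines (2.02 ± 0.17). The levels of both genes with both cytokines were low. On the ratio scale of edgeR the difference of the 2 changes of Retnla was 0.62 (adjusted p = 0.62), so the interaction of this gene depends on the scale. Its difference from IFN-γ alone, where nearly all values were 0, was likewise not called by edgeR (2.08, adjusted p = 0.83). Socs1, which fell under IL-4, rose under both cytokines, with 256, 305 and 209 CPM at 4 h and 138, 156 and 147 at 2 h (0.78 ± 0.19), and the difference was -1.40 ± 0.27 (adjusted p = 0.0016). Against IFN-γ alone it was -0.86 ± 0.27 (adjusted p = 0.021; 0.15 without replicate 1, 0.10 without replicate 3, 0.16 in CPM as deposited and 0.097 without the replicate block). The call of Socs1 under IL-4 was itself lost without replicate 1 or 3, in CPM as deposited and without the block (adjusted p 0.46, 0.11, 0.11 and 0.16).

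Genes with a larger fall under both cytokines than under IL-4 alone included Nav2, a cytoskeletal regulator, with 32.5, 26.9 and 17.6 CPM at 4 h and 66.3, 89.3 and 45.1 at 2 h of IL-4 (-1.34 ± 0.18) and 5.18, 5.62 and 3.61 CPM at 4 h and 66.6, 75.8 and 58.0 CPM at 2 h of both cytokines (-3.56 ± 0.18). The difference was 2.22 ± 0.26 (adjusted p = 2.2e-05). Ahr (1.95 ± 0.19), Slco2b1 (2.19 ± 0.44), the peroxisomal carrier Abcd2 (1.93 ± 0.25), the pro-apoptotic gene Bmf (1.78 ± 0.26) and the potassium channel Kcnj2 (1.96 ± 0.36) differed in the same direction. For Slco2b1 the adjusted p of this difference was 0.087 without replicate 1 and without replicate 3. Plau, the urokinase plasminogen activator, fell under IL-4 (-0.66 ± 0.22) and rose under both (2.01 ± 0.22; difference -2.67 ± 0.31), but its fall under IL-4 was lost without replicate 3, in CPM as deposited and without the block (adjusted p 0.52, 0.11 and 0.4). Ptgs2 (-3.11 ± 0.56), Clic5 (-3.67 ± 0.16) and the guanylate-binding protein Gbp4 (-3.08 ± 0.31), whose reads can be shared with relatives, rose under both cytokines and were not called under IL-4. Without the replicate block the differences of Slco2b1, Ptgs2 and Bmf were not called (adjusted p 0.057, 0.17 and 0.14).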

How the data were processed

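RNA from macrophages of day 7 was sequenced as poly(A) libraries, and the authors deposited CPM per gene, which are normalised by library size. Per the submitters' processing notes, reads were processed with TopHat2 2.1.0, HTSeq and edgeR on mm10 (GRCm38); whether counting used strand is not given in the sources used here. Whole reads were recovered from the deposited CPM for 100% of values, within 0.01 read, and gave the library totals of 28920801 to 80028327 over the 21 libraries. The members, gene lists and tests were chosen with earlier results of these data known.

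Each library was divided by its median ratio to the geometric mean over libraries (factors 0.573 to 1.22). The 11380 genes that reached 1 CPM in 3 or more libraries were tested as log2(rescaled CPM + 1) with limma 3.58.1 in R 4.3.3 over all 21 libraries, with group and replicate number as terms (12 residual degrees of freedom), Benjamini-Hochberg adjustment and a threshold of 0.05. Interactions were tested as differences of the changes between treatments. The scripts were tested on simulated data. Deviations of same-numbered IL-4 libraries from their group means correlated at 0.854, 0.912 and 0.803, and over all groups at 0.54 to 0.951 for 63 same-numbered pairs and -0.859 to 0.369 for 126 others, so the numbers were taken to pair the libraries.

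The genes named were a fixed set of IL-4 response genes, the 15 largest changes in each direction with a mean of at least 5 CPM and all 3 pairs in 1 direction, up to 5 called and 2 uncalled genes of each list, and the 8 largest differences in each direction of each interaction; predicted and RIKEN genes and some others were left out of the text. Choice by size of called change and by direction of the pairs favours genes whose 2 times do not overlap. The share of all genes without overlap is not given here. Gene spans came from GENCODE vM21 (10972 of the tested genes matched), and promoter sequences from RefSeq (GRCm38.p6, 8783 genes matched). Alternatives were CPM as deposited, other pseudocounts (0.25 and 4) and filters, the fit without the block, without the untreated libraries, to the 6 IL-4 libraries alone, without each replicate number, and edgeR 4.0.16 on the recovered reads.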

Additional observations from a re-analysis of the deposited data

Results flagged for a closer look

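The change from 2 h to 4 h differed between treatments, by the interaction test in limma, for the genes below, each given as the change under IL-4 minus the change under the other treatment on the log2(rescaled CPM + 1) scale. Among genes that moved under IL-4, the difference from IFN-γ was 4.14 for Retnla, 3.08 for Scn3a, 2.31 for Tmem26, 2.07 for Prps1, 2.51 for Tanc2, 2.35 for Arl15, 1.42 for Socs2, 2.39 for Lpin1, -2.02 for Phlpp1, -1.84 for Serpinb8, -2.33 for Ch25h and -0.86 for Socs1. Among genes with no call under IL-4, it was 2.63 for Ahr, 2.48 for Slco2b1, -5.53 for Ptgs2, -5.30 for Clic5, -4.53 for Nos2, -3.72 for Ccl5, -3.69 for Slco3a1, -3.64 for Nfkbie and -3.51 for Mir155hg. The difference from both cytokines was 3.22 for Retnla, 2.02 for Scn3a, 1.95 for Ahr, 2.22 for Nav2, 2.19 for Slco2b1, 1.93 for Abcd2, 1.78 for Bmf and 1.96 for Kcnj2. It was -1.40 for Socs1, -2.67 for Plau, -3.11 for Ptgs2, -3.67 for Clic5 and -3.08 for Gbp4. The differences of Retnla were not called by edgeR on the recovered reads (adjusted p 0.83 against IFN-γ and 0.62 against both), nor was that of Mir155hg (0.07).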

How the results depend on the processing

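Each count of calls over all genes kept its size under other pseudocounts, other filters, edgeR on the recovered reads, the fit without the untreated libraries and, for IL-4, the fit to its 6 libraries alone, all within 1.5 times the values reported. Counts within gene lists moved further in some of these settings: the 6-library fit called 11 of 28 type I interferon genes lower (4 in the report), 8 of 20 transcription factors lower (2), 5 of 24 proteasome subunits higher (1), 5 of 11 LXR genes lower (3) and 5 of 17 chemokines higher (2), and with no filter on low values 3 Toll-like receptors and adaptors were lower (7). With edgeR 1126 genes were higher and 1245 lower under IL-4. In CPM as deposited, 224 genes were higher and 238 lower under IL-4, 812 were higher under IFN-γ, 850 higher and 1569 lower under both cytokines, 694 and 506 for the difference between IL-4 and IFN-γ, and 244 and 282 for that between IL-4 and both. In the same values without the untreated libraries, a setting added after the data had been seen, these were 1470 higher and 4395 lower under IFN-γ, 1741 higher under both, and 3641 and 1162, and 2379 and 835 for the differences. Leaving the values unscaled moved the median over all genes to 0.04 under IL-4, -0.17 under IFN-γ and -0.10 under both, and to 0.22 and 0.16 for the differences.

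Without the replicate block 146 genes were higher and 171 lower under IL-4, 1115 and 901 under IFN-γ, 1079 and 1004 under both, 352 and 593 for the difference from IFN-γ, and 107 and 223 for that from both. Leaving out each replicate number in turn gave 237 to 1229 genes higher and 296 to 1300 lower under IL-4, 1379 to 2933 and 1262 to 2600 under IFN-γ, 1451 to 2570 and 1543 to 2574 under both, 583 to 1776 and 807 to 2237 for the difference from IFN-γ, and 195 to 1173 and 368 to 1308 for that from both. The lowest of each range was the count without replicate 3.

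Among the genes named, the values of uncalled genes near 0 changed sign: without each replicate number Ccl7 ran from -0.148 to 0.269, Ptgs2 from -0.0445 to 0.167 and Clic5 from -0.105 to 0.0655, and Clic5 was -0.0098 with a pseudocount of 0.25. Some of the 146 values for named genes had no call to lose, so shares over 146 understate the losses. A call was lost by 58 values without the block, 29 without replicate 3, 15 without replicate 1, 2 without replicate 2 and 15 in CPM as deposited. The cause was not tested. Depth limits the low genes: 1 read was worth 0.0202 to 0.0261 CPM in the IL-4 libraries.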

Other observations

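Counts in further gene lists are given for the change from 2 h to 4 h under each treatment. Over all genes tested 9.48% were higher and 10.6% lower under IL-4, 23.2% and 23.9% under both cytokines, and 23.0% and 22.4% under IFN-γ. Of 18 immediate early genes, 1 was higher under IL-4 from 2 h to 4 h, 10 under both cytokines and 15 under IFN-γ. Of 28 genes stimulated by type I interferon, 0 were higher and 4 lower under IL-4, 14 and 2 under both, and 15 and 1 under IFN-γ. Of 14 genes of MHC class II and costimulation, 4 were higher under IL-4, 9 under both and 11 under IFN-γ. Of 12 iron genes 1 was higher and 4 lower under IL-4, 1 and 6 under both, and 0 and 5 under IFN-γ. Of 24 proteasome subunits, 1 was higher under IL-4, 13 under both and 14 under IFN-γ. Of 15 genes of the amino acid stress response, 1 was higher and 1 lower under IL-4, and of 12 clock genes likewise 1 and 1.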
